A study of Mus musculus with 2 samples.

Results

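The cytosolic ribosomal protein genes were read on 2 Affymetrix Mouse Genome 430 2.0 arrays, 1 of wild-type and 1 of Bhlha9 knockout limb bud RNA. Members were chosen by symbol alone, as the Rpl, Rplp, Rps and Rpsa genes with probe sets annotated to a single gene, and the Rps6k kinases were left out. This gave 100 of 45101 probe sets and 46 of 18193 genes, of which 24 genes (44 probe sets) belong to the large subunit and 22 genes (56 probe sets) to the small subunit. All 46 symbols matched RefSeq by Entrez identifier. A further 28 genes that fit the symbol pattern, among them Rpl3, Rpl5, Rpl10, Rpl24, Rplp1 and Rps12, were represented solely by probe sets with several annotated symbols, mostly pseudogenes, and were not read by name.

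Both groups were whole limb buds of C57BL/6 embryos at E10.5, and the knockout embryos lacked Bhlha9, a transcription factor gene of the basic helix-loop-helix family. The labels do not describe the deleted allele, the number of embryos per RNA or the mix of fore and hind limb buds. With 1 array per genotype there was no replicate, so no test was possible, and "higher" and "lower" describe these 2 arrays. In bulk tissue, fewer cells of a type and less RNA per cell cannot be told apart.

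A cytosolic ribosome joins a small subunit, which reads the mRNA, to a large subunit, which forms peptide bonds. Each subunit is built from rRNA and a set of small proteins, most of which are needed in equal copy number, and their genes are transcribed at high rates in growing tissue. Their mRNAs carry a pyrimidine tract at the 5′ end, known as a TOP sequence, through which their translation is tied to growth signals. Loss of single ribosomal proteins is known to give selective defects, such as anaemia in Diamond-Blackfan syndrome and the axial skeleton changes of Rpl38 mutant mice. Many ribosomal protein genes also have numerous processed pseudogenes, so probes against them often match more than 1 locus.

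A pyrimidine tract at the start site was more frequent in these genes than in all genes, though not present in every member. RefSeq promoter windows of the GRCm38.p6 build were found for 40 of the 46 genes, with 48 windows in all. A run of at least 7 pyrimidines (C or T) on the sense strand, lying across or within 5 bases of the annotated start, was present in 20 of the 48 windows (41.7%), against 14.1% of all 32851 windows in the table. On the other strand the same run was present in 1 of 48 member windows (2.08%) and in 15.4% of all windows. The letters CCGGAAG, searched on both strands over the 300 bases of each window and written CTTCCGG on the other, were present in 20 member windows (41.7%) and in 8.86% of all. These matches are descriptions of letters and not of binding or use. The windows below run from 20 bases before the start to the first 10 transcribed bases, with the pyrimidine run in capitals. They belong to members whose probe sets are described later: Rpl7a with a long run, Rpl35 with positive ratios in all its probe sets, Rpl38 and Rplp2 near a ratio of zero, Rps6 and Rps27 with the highest ratios, and Rps10 and Rps18 with probe sets that disagree.
Rpl7a (chr2:26910787-26910816, plus strand): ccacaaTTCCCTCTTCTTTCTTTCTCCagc
Rpl35 (chr2:39005122-39005151, minus strand): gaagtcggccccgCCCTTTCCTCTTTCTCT
Rpl38 (chr11:114668560-114668589, plus strand): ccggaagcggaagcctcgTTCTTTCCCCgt
Rplp2 (chr7:141447631-141447660, plus strand): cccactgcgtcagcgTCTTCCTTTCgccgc
Rps6 (chr4:86857358-86857387, minus strand): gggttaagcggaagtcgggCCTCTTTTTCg
Rps27 (chr3:90213639-90213668, minus strand): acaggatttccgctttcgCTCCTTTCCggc
Rps10 (chr17:27635235-27635264, minus strand): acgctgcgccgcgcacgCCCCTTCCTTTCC
Rps18 (chr17:33955656-33955685, minus strand): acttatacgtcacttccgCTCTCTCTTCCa

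The run did not separate members by their ratio. Among genes above the floor with a window, the 19 with the run had a median log2 ratio of 0.19 (range -0.42 to 0.71) and the 18 without it a median of 0.13 (range -0.63 to 0.31), so both ranges overlapped over most of their length.

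Ribosomal protein probe sets gave nearly the same signals on both arrays at the deposited scale. Of the 20 probe sets with the highest wild-type signal, 14 carried a ribosomal protein symbol, 7 of them members. Whether signals this high still follow the amount of transcript was not tested, so near-equal signals are not read as equal transcript levels. Signals are the MAS 5.0 intensities as deposited, log2 ratios were taken as knockout minus wild-type, and each gene was read from its brightest single-symbol probe set. Signals under the 40th percentile of an array (41.2 for wild-type and 41.8 for knockout) were raised to that floor and treated as not detected. Of the 46 genes, 43 lay above the floor, all of them on both arrays. At a threshold of 2-fold, 0 of the 43 were higher and 0 were lower on the knockout array. Of the 13088 genes detected on either array, 6.8% passed that threshold, 4.15% higher and 2.65% lower. In the brightest 20% of genes by mean signal, where 39 of the 2618 genes were ribosomal protein genes, 1.03% passed it, so a count of 0 in 43 is near what bright genes gave in general.

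The 43 ratios were mostly slightly positive, with a median of 0.13 (1.10-fold), an interquartile range from 0.02 to 0.23 and extremes of -0.63 and 0.71. Positive ratios were found for 34 of 43 genes, against 50.7% of all genes and 60% of the brightest 20%. All genes had a median of 0.01 and the brightest 20% without the members 0.09. This positive median was not kept under every scaling: it was 0.0020 after quantile normalization and -0.07 after cyclic loess, with 22 and 13 of 43 ratios positive. The signs below are those at the deposited scale. The tenth of genes with the highest signal, which held 35 of the 43 members, had a median of 0.10, and the trend of ratio with signal is drawn with the members on it in the plot of ratio against signal.

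**Figure D1:**
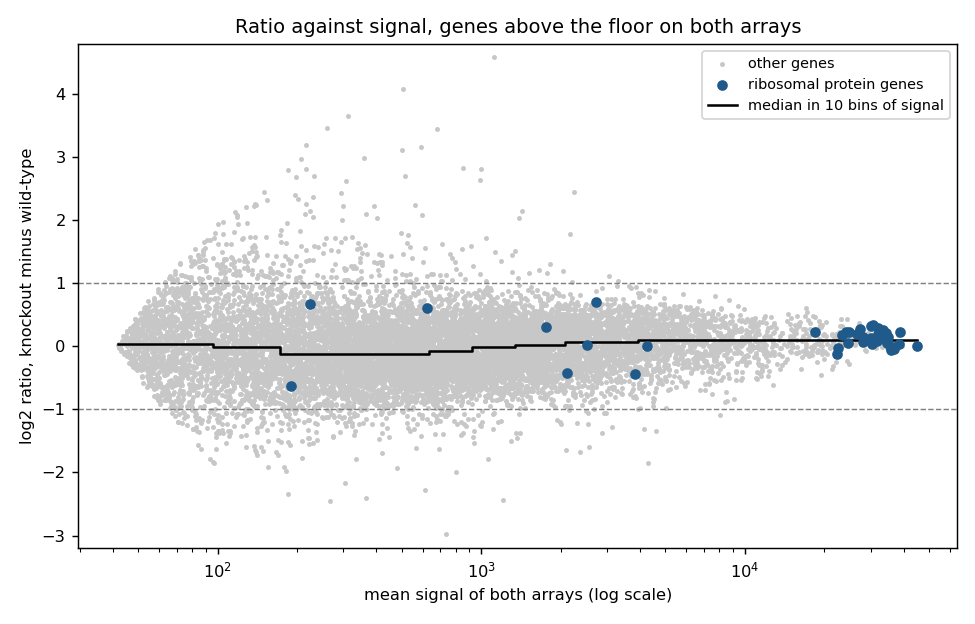
Log2 ratio (knockout minus wild-type) against the mean signal of both arrays on a log scale, for genes above the floor on both arrays, with 1 array per genotype. Grey points are other genes, blue points the 43 ribosomal protein genes, the black line the median in 10 bins of signal and the dashed lines 2-fold. The members all lie inside the dashed lines, and most sit at the bright end, where the median of all genes was 0.10.

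Large subunit genes were read first. Of 24 genes, 22 were above the floor, 19 with positive and 3 with negative ratios, and the median was 0.13. The 17 genes with a mean signal of at least 10000 ranged from 24194 to 37791 in wild-type and from 25034 to 41703 in knockout, with 16 of 17 ratios above zero and a median of 0.15 at the deposited scale. Signals of different probe sets depend on their probes and are not compared between genes.

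Among these bright large subunit genes, Rpl10a, a protein of the mobile L1 stalk, had the highest ratio, with 27136 in wild-type and 34317 in knockout, a log2 ratio of 0.34. Rpl7 was read at 26613 and 33378 (0.33), and its other probe sets gave 0.18 and 0.09. Rpl11, which with Rpl5 and the 5S rRNA can bind Mdm2 and so stabilise p53 when ribosome assembly fails, was read at 24670 and 29936 (0.28). From their brightest probe sets, Rpl10a, Rpl7 and Rpl11 exceed the SD of 0.11 for 1 ratio read from the members' own probe sets below. At the deposited scale 2 of them also exceed the 0.28 read from all genes. They were picked as the highest of the 17 ratios, and the median of the 34 bright members, 0.14, exceeds 0.11 too. Passing the smaller SD therefore does not set these genes apart from the other members. Neither SD covers a shift of a whole array, and after loess the ratios were 0.13, 0.12 and 0.08 in that order.

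Rpl13a, which also takes part in translational control in inflamed cells, was read at 35637 and 41703, a log2 ratio of 0.23. Rpl35, a gene mutated in some families with Diamond-Blackfan anaemia, was read at 31648 and 36871 (0.22). Rpl38, whose loss in mice alters the translation of a subset of Hox mRNAs, was read at 37791 and 38909, a ratio of 0.04. Rpl38 was thus read almost equally on both arrays at the deposited scale, and its ratio was -0.09 after quantile normalization and -0.19 after loess.

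The stalk proteins recruit translation factors to the large subunit. Rplp0, the base of the stalk, was read at 33916 and 35081, a log2 ratio of 0.05. Rplp2, an acidic stalk protein, was read at 37211 and 36149 (-0.04), the sole negative ratio among the 17 bright large subunit genes. Both differences are smaller than the disagreement between probe sets. The other bright members, Rpl4, Rpl6, Rpl7a, Rpl8, Rpl19, Rpl22, Rpl27, Rpl37a and Rpl41, had ratios between 0.05 and 0.19.

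Small subunit genes gave a similar median with a wider spread. Of 22 genes, 21 were above the floor, 15 with positive and 6 with negative ratios, and the median was 0.17, which is 0.05 above that of the large subunit. After cyclic loess both subunits had medians that differed by less than 0.01 and were negative, -0.06 for the large and -0.07 for the small subunit. The 17 small subunit genes with a mean signal of at least 10000 had a median of 0.12, below the 0.15 of the large subunit, so the order of the subunits changed with the members counted. No difference between the subunits was therefore shown on these 2 arrays.

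Of the bright small subunit genes, Rps7, another Diamond-Blackfan gene, had the highest ratio, with 28756 and 35356 on the wild-type and knockout array (0.30). Rps18, a protein of the head of the subunit, was read at 30372 and 36489 (0.26). Rps27l, a copy of Rps27 that is induced by p53, was read at 16981 and 19899 (0.23), and its 3 probe sets gave 0.18 to 0.23. Rps19, the gene most often mutated in Diamond-Blackfan anaemia, was read at 22864 and 26770, a log2 ratio of 0.23.

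Rpsa, a ribosomal protein that was also described as a laminin receptor, was read at 31690 and 36514 (0.20), and Rps24 at 29864 and 34094 (0.19). The remaining bright members with positive ratios, Rps2, Rps3, Rps14, Rps20, Rps26 and Rps29, lay between 0.01 and 0.22. Rps29 gave the highest signal of any probe set on either array, 44958 and 45405, a ratio of 0.01.

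The 5 bright small subunit genes with negative ratios were all close to zero. Rps9 was read at 23394 and 21469 (-0.12), Rps10 at 36451 and 35217 (-0.05), and Rps28 at 36125 and 35436 (-0.03). Rps15 was read at 22762 and 22338 (-0.03). Rps4x, the X-linked member of the Rps4 family, was read at 36593 and 36291 (-0.01). Other probe sets of Rps9, Rps10, Rps28 and Rps15 had positive ratios, as given below.

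The 3 highest and the 3 lowest ratios of the whole group all came from the 9 genes whose brightest single-symbol probe set had a mean signal under 10000. This split was made after the values were seen, and no probe set of a member lay between 4388 and 12583 on either array. Rps6, the target of the S6 kinases, was read at 2060 in wild-type and 3378 in knockout, a log2 ratio of 0.71. Rps27, a zinc-finger protein of the small subunit, was read at 173 and 274 (0.67), and Rpl27a at 492 and 751 (0.61). At 1.5-fold these were the 3 genes called higher of 43, against 11.2% of all genes.

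In the other direction, Rpl39, a small protein that lines the peptide exit tunnel, was read at 230 and 149, a log2 ratio of -0.63, and was the 1 gene called lower at 1.5-fold, against 11.7% of all genes. Rps4l, a copy of Rps4x, was read at 4388 and 3247 (-0.43), and Rpl12 at 2426 and 1809 (-0.42). Rps25 gave 0.31, Rpl14 0.02 and Rpl37 0.01. For 8 of these 9 genes the array also carried probe sets with several symbols, which were not assigned to the gene, and Rps4l was the exception. Of the 9 ratios, 6 were positive and 3 negative, so the dimmer members did not shift one way. The 6 extreme ratios kept their signs after quantile normalization and loess, where Rps6 gave 0.68 and 0.70 and Rpl39 gave -0.50 and -0.49.

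Paralogues with restricted expression were near or under the floor, apart from those already given. Rpl3l, the striated muscle copy of Rpl3, was read at 3.001 in wild-type and 3.42 in knockout. Rpl39l, a copy of Rpl39 known from testis, was read at 16.5 and 37.2. Both were under the floor on both arrays, so no ratio was given. Rps16 had a single probe set with its symbol alone, at 0.87 and 1.15, and was the third gene without a reading.

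Probe sets of the same gene mostly gave the same direction at the deposited scale. The 100 probe sets included 91 above the floor on both arrays, 2 above it on the knockout array alone and 7 under it on both. Single probe sets stood for 23 genes and several for the other 23, up to 6 each for Rpl35, Rps10, Rps18 and Rps24. For 19 genes at least 2 probe sets were above the floor on both arrays, and in 14 of them every ratio was positive, in 0 every ratio was negative and in 5 the signs were mixed. The 5 were Rps9, Rps10, Rps15, Rps18 and Rps28, all of the small subunit. That subunit had 56 probe sets for 22 genes, against 44 for 24 in the large subunit. Genes with more probe sets have more room for mixed signs, so no difference between the subunits is read from this.

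The ratios of the brightest pair of probe sets differed by a median of 0.08 over these 19 genes, and their disagreement corresponds to a robust SD of 0.11 for 1 log2 ratio. Over the 5440 genes of the arrays with such a pair, the same measure was 0.28. The brightest pair shared its sign in 15 of 19 member genes (78.9%) and in 69.4% of all genes. These shares have unlike baselines, as 62 of the 68 bright member probe sets were positive, against 50.7% of all genes. They therefore do not show closer agreement in the members. Among 90 genes outside the group with 2 probe sets of at least 10000, the disagreement was 0.08, so the tight values were not particular to ribosomal protein genes. The signs matched in 83.3% of those genes. It covers neither embryo nor dissection differences, and probe sets of a gene can share probes.

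**Figure D2:**
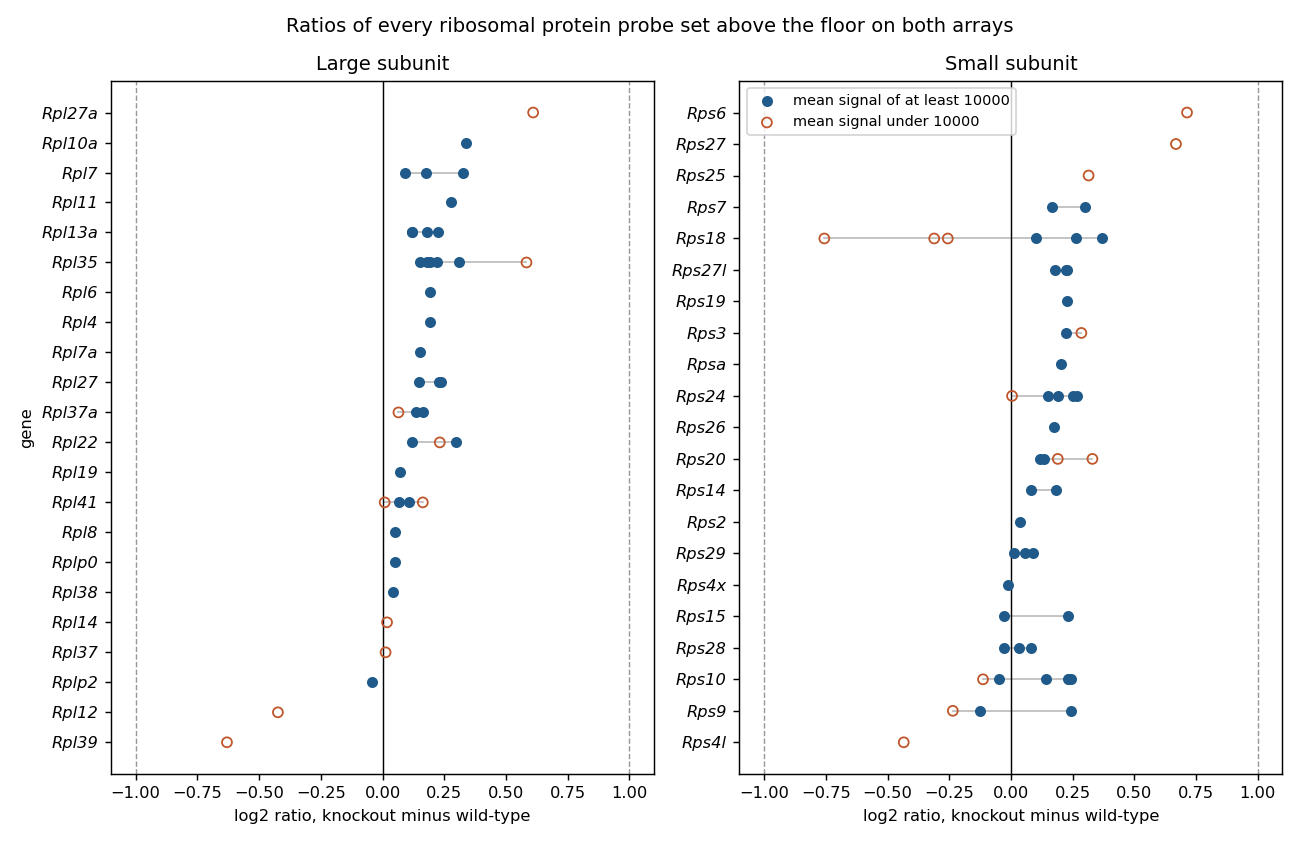
Log2 ratio (knockout minus wild-type) of each probe set above the floor on both arrays, by gene, for the large subunit (left) and the small subunit (right). Filled points have a mean signal of at least 10000 and open points a lower one, grey lines join the probe sets of a gene and dashed lines mark 2-fold. Filled points lie between -0.12 and 0.37, and open points spread from -0.76 to 0.71.

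Rpl35 had positive ratios in all 6 of its probe sets. Its 5 bright probe sets gave 0.15, 0.18, 0.19, 0.22 and 0.31, and the dim sixth, at 93.0 in wild-type and 139 in knockout, gave 0.58. Rpl13a had 4 probe sets from 0.12 to 0.23 and Rpl27 had 3 from 0.15 to 0.24, so their ratios lay closer together. The probe sets of Rpl41, which encodes a very short basic peptide, gave 0.01 to 0.16.

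Rps18 showed the widest disagreement, 1.12 between its highest and lowest ratio. Its 3 bright probe sets were positive at 0.26, 0.37 and 0.10. Its 3 dim ones were negative, at 180 and 145 (-0.31), 95.9 and 80.3 (-0.26), and 82.7 and 49.0 (-0.76). In this gene the sign followed the signal level of the probe set.

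Rps9 spread by 0.48, with bright probe sets at -0.12 and 0.24 and a dim one, at 1157 and 983, at -0.24. Rps10 had bright probe sets at -0.05, 0.14, 0.23, 0.23 and 0.24 and a dim one, at 260 and 241, at -0.11. Rps15 had -0.03 and 0.23, and Rps28 had -0.03, 0.03 and 0.08. For Rps9, Rps10, Rps15 and Rps28 the bright probe sets alone already differed in sign, so a single ratio of this size does not fix a direction.

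In Rps24, a Diamond-Blackfan gene with several spliced forms, 4 bright probe sets gave 0.15 to 0.27 and a dimmer one, at 1937 and 1943, gave 0.0044. A further Rps24 probe set was read at 13.1 in wild-type and 81.5 in knockout. As the wild-type signal was not detected, it was at least 1.98-fold higher, the largest difference of any member probe set. Rps6 also had a probe set above the floor on the knockout array alone, at 30.8 and 50.3, at least 1.22-fold higher. Such probe sets can only give positive ratios.

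Over the 10 genes with both kinds of probe set above the floor, the dimmer ones had the higher median ratio in 4 and the lower in 6. In counts of probe sets, the Rps24 one read at 13.1 and 81.5 enters at its lower limit of 1.98-fold. On that reading, 0 of 93 probe sets were past 2-fold, against 7.27% of all single-symbol probe sets. The 68 with a mean signal of at least 10000 had a median of 0.17 and a robust SD of 0.09, with 62 positive. The 25 dimmer ones had a median of 0.06 and a robust SD of 0.39, with 17 positive. The spread of ratios among members was thus mostly found in the dimmer probe sets.

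Probe set types had similar medians at the deposited scale but differed in spread. Identifiers ending in _x_at, which mark probes that can match other sequences, made up 40 of the 100, and 39 of them were above the floor with a median of 0.13. The 26 ending in _a_at, which read several transcripts of a gene, had a median of 0.19, and the 25 of 31 plain _at probe sets above the floor had a median of 0.16. Positive ratios numbered 38 of 39, 21 of 26 and 18 of 25 in that order, with robust SDs of 0.10, 0.07 and 0.24. The 110 probe sets with several symbols, outside the rule, gave a median of 0.15 over the 106 above the floor, with 92 positive. Of these, 0 were at least 2-fold higher and 1 was at least 2-fold lower. They cover 15 of the genes already read as well as the 28 others.

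Other genes of translation were set beside the members from lists written by function, with the earlier results known. Of 46 translation factors and other genes with TOP mRNAs, 41 were measured and above the floor on both arrays. Of these, 0 passed 2-fold, and the median was 0.04 with 24 positive and 17 negative ratios, a sign that turned to -0.05 after quantile normalization, -0.07 after loess and -0.04 with plain _at probe sets alone. Subunits of the initiation factor eIF3 stood at both ends, with Eif3m read at 3647 and 6244 (0.78), Eif3e at 15088 and 21152 (0.49) and Eif3b at 4239 and 2535 (-0.74), and the median over the probe sets of Eif3m was 0.37. Abce1, which splits ribosomes after termination, was read at 4415 and 6546 (0.57). Eif4ebp2, an inhibitor of cap-dependent initiation, was read at 2485 and 1591 (-0.64), and Eef2, the translocation factor, at 15472 and 10139 (-0.61).

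Ribosome assembly genes spread about as widely as all genes, whose quartiles were -0.33 and 0.32. All 75 measured of the 76 listed were above the floor on both arrays. Of these, 0 were at least 2-fold higher and 1 at least 2-fold lower, against 4.15% and 2.65% of all genes. Their median was 0.09, with quartiles of -0.38 and 0.32 and 42 positive ratios. Their robust SD of 0.46 exceeded the 0.15 of the 43 ribosomal protein genes but not the 0.67 of the 9 members with signals under 10000. The lower gene was Polr1b, a subunit of the polymerase that transcribes rRNA genes, read at 681 and 332 (-1.04). Nol9 was read at 599 and 313 (-0.93) and Bop1, which processes large subunit rRNA, at 1331 and 728 (-0.87), but their medians over all probe sets were -0.27 and -0.56. At the other end, Nip7 was read at 3820 and 6081 (0.67), Rpf2 at 1802 and 2748 (0.61) and Rpf1 at 1576 and 2383 (0.60). The sign of Rpf1 depended on the probe set, with 0.04 as the median over its probe sets and -0.52 with plain _at probe sets alone, and Rpf2 gave 0.36 and 0.18. The median of this list turned to -0.01 with plain _at probe sets alone. It was -0.05 when arrays were scaled on the hybridisation controls, where that of all genes was -0.13.

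Mitochondrial ribosomal protein genes, which build the separate ribosome of that organelle, had a median of 0.13 over 76 genes, with 54 positive and 22 negative ratios and 0 past 2-fold. Mrps33 was read at 2878 and 5172 (0.85), Mrpl50 at 1273 and 2279 (0.84) and Mrpl47 at 2402 and 3795 (0.66). Mrps34 was read at 2511 and 1599 (-0.65), Mrpl37 at 1340 and 884 (-0.60) and Mrpl4 at 1757 and 1213 (-0.54). This list kept a positive median after quantile normalization (0.14) and loess (0.16), where the cytosolic members had 0.0020 and -0.067. The median of all genes was 0.043 and 0.051 there. The ribosome assembly list, at 0.056 and 0.055, was close to all genes, so its positive sign does not set it apart. When scaled on the hybridisation controls, the mitochondrial list had a median of -0.01 and all genes had -0.13.

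Relatives of the members outside the symbol pattern had 5 measured genes, all with positive ratios at the deposited scale. Rpl22l1, a paralogue of Rpl22, was read at 15920 and 19313 (0.28). Rps3a1, the small subunit protein eS1, was read at 35777 and 40737 (0.19), and Rps19bp1, which binds Rps19, at 1531 and 1754 (0.20). Rpl7l1 gave 0.09, and Fau, which encodes a ubiquitin-like fusion with Rps30, gave 0.02. The ratio of Fau turned to -0.09 after quantile normalization and -0.17 after loess, and that of Rps3a1 to -0.04 after loess.

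**Figure D3:**
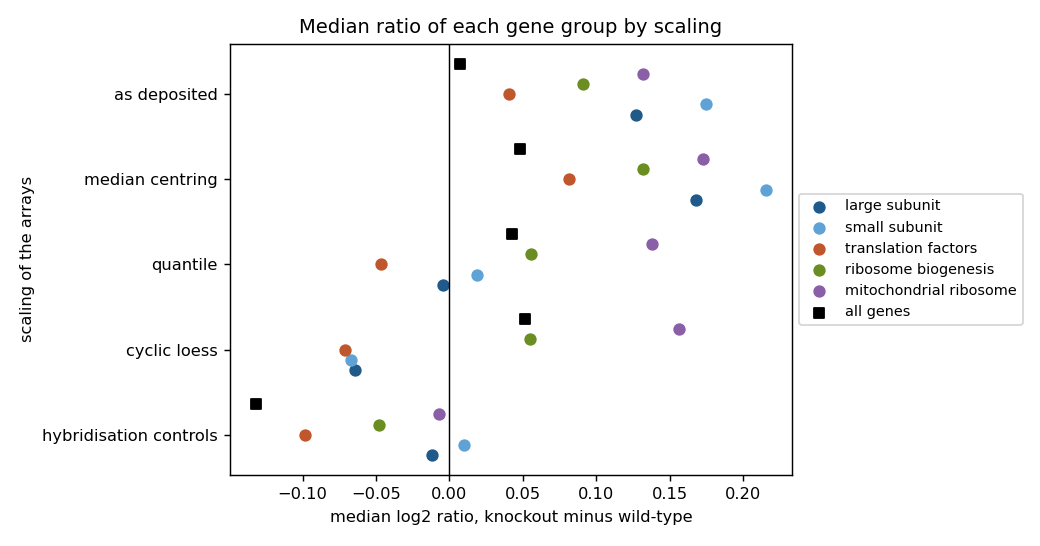
Median log2 ratio (knockout minus wild-type) of each gene group under 5 scalings of the arrays, with 1 array per genotype. Colours mark the gene groups and black squares all genes. Large and small subunit medians of 0.13 and 0.17 as deposited fall to -0.06 and -0.07 after cyclic loess, and to -0.01 and 0.01 when arrays are scaled on the hybridisation controls. Under that last scaling the median of all genes is -0.13.

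Control probe sets give the scale of the arrays. The 18 probe sets for bacterial and phage transcripts of the kind added to the hybridisation mix had a median log2 ratio of 0.14, with 16 positive, next to the 0.13 of ribosomal protein genes. With the arrays scaled on these controls, a setting chosen after the data were seen, the median of the members was -0.0049 and 21 of 43 ratios were positive. This scaling lowered every ratio by the same 0.14, and the median of all genes was then -0.13. The 24 probe sets for poly(A) controls of the kind added to RNA before labelling were all lower on the knockout array, with a median of -1.13 and a range from -1.54 to -0.73. The ratio of 3′ to 5′ signal, which rises with RNA degradation, was 0.92 and 0.85 for Gapdh and 1.45 and 1.88 for beta-actin on the wild-type and knockout array. The part of these differences in the members' ratios was not tested.

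**Figure D4:**
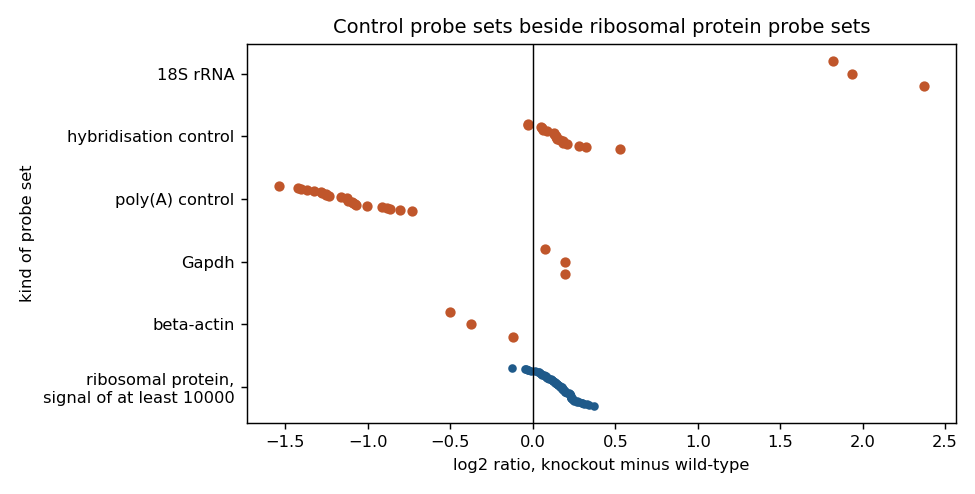
Log2 ratio (knockout minus wild-type) of single control probe sets by kind, in red, and of the 68 ribosomal protein probe sets with a mean signal of at least 10000, in blue. Points are single probe sets, offset vertically for legibility. The hybridisation controls and ribosomal protein probe sets overlap, the poly(A) controls lie at or below -0.73 and the 18S rRNA probe sets above 1.82.

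Markers of liver, nerve, ectoderm and limb mesenchyme differed more between the arrays than the members did, and the main embryonic globins did not. Limb mesenchyme markers were above the floor in 6 of 6 on both arrays, with summed signals of 27070 and 13653, and 5 of 6 were at least 2-fold lower on the knockout array. Embryonic liver markers were above the floor in 1 of 9 in wild-type and 8 of 9 in knockout, with summed signals of 141 and 32429, and neural markers in 6 and 9 of 9, with 944 and 4781. Ectoderm markers summed to 2394 and 6380 and muscle markers to 2082 and 3133. Of the 6 muscle markers, 4 were at least 2-fold higher, while Actc1 and Acta1 had ratios of -0.47 and -0.09. Primitive erythroid markers summed to 85168 and 90642, with Hbb-bh1 at 0.26, Hba-x at 0.01 and Hbb-y at -0.04. Of the dimmer erythroid markers, Alas2 was at 0.34, and Klf1, read at 222 and 451 (1.02), was at least 2-fold higher. In total, 0 markers of any list had a signal of 0. These lists were chosen with earlier results known, and their part in the members' ratios was not tested. Bhlha9 itself was not detected in either sample, at 7.87 and 1.70, and did not check the labels.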

How the data were processed

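RNA of 1 wild-type and 1 Bhlha9 knockout limb bud sample was measured. Per the labels' protocols, 200 ng of total RNA was labelled with a 3′ IVT kit. The deposited values are intensities on a linear scale, summarised by the authors with MAS 5.0 per the series' design text, and the 2% trimmed mean of each array was 500.0. The build behind the probes is not given in the sources used here. Genes were read from 45037 probe sets, without the 64 controls. Symbols came from the platform annotation.

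Log2 ratios, a floor at the 40th percentile of each array and the brightest single-symbol probe set per gene were used. Each group was 1 array, so no test was made, and precision is limited by the single array per genotype. Counts used a 2-fold threshold. Named genes were those past 2-fold, the 6 highest and 6 lowest ratios in each subunit, the 3 highest and 3 lowest in each other list, fixed paralogues, patterning and anaemia genes, stalk genes, and the 6 genes whose probe sets differed most, and the other members are named with a range. Members and lists were chosen with earlier results of these data known. The steps were tested on simulated data. Alternatives covered scaling, floor, pseudocount of 32, probe set choice and a 1.5-fold threshold. Python 3.11.15, numpy 2.4.6, pandas 2.3.3, matplotlib 3.10.9, R 4.3.3 and limma 3.58.1 (loess and quantile) were used.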

Additional observations from a re-analysis of the deposited data

Results flagged for a closer look

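The 18S rRNA control probe sets lie outside the gene comparison and were higher on the knockout array. The 3′ probe set was read at 3360 in wild-type and 11880.4 in knockout, a log2 ratio of 1.82. The 5′ probe set was read at 5816 and 22214 (1.93) and the middle one at 3384 and 17507 (2.37). These control probe sets thus read 3.54-fold to 5.17-fold higher. The mRNAs of small subunit proteins were a median of 1.13-fold higher (a log2 ratio of 0.17, which turned to -0.07 after cyclic loess). RNA was labelled with a 3′ IVT kit, and whether the 18S probe sets follow the amount of rRNA was not tested. The 24 poly(A) control probe sets were all lower, with a median of -1.13. Each value is from 1 array and has no replicate.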

How the results depend on the processing

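Counts at 2-fold stayed at 0 in each direction under the alternatives of scaling, floor and probe set, and at 1.5-fold came to 3 higher and 1 lower. The median log2 ratio of the members was 0.13 to 0.18 with median centring, a floor at the 60th percentile, a pseudocount of 32, the median over probe sets or plain _at probe sets. It was 0.0020 with quantile normalization, -0.067 with cyclic loess and -0.0049 when scaled on the hybridisation controls, a setting chosen after the data were seen. The median of all genes was then 0.043, 0.051 and -0.13. Members minus all genes thus came to -0.041, -0.12 and 0.13. The last value follows from its setting, which shifts members and all genes alike and so keeps the difference of the deposited scale. It is therefore no check of that difference, which was not kept after quantile normalization or loess. Under these 3 settings, the large subunit had -0.0044, -0.065 and -0.012, the small subunit 0.019, -0.067 and 0.010, and positive ratios numbered 22, 13 and 21, against 16 of 22 genes with plain _at probe sets, where fewer genes were read. Translation factors gave -0.046, -0.071 and -0.098, and -0.038 with plain _at probe sets. Ribosome biogenesis genes gave -0.048 on the hybridisation controls and -0.0084 with plain _at probe sets, and mitochondrial ribosomal genes -0.0073 on the hybridisation controls. Scaling on the hybridisation controls lowers every ratio by the same 0.14, so its sign changes follow from that setting. The cause of the other sign changes was not tested. Of 51 named genes with a ratio, 9 changed sign with loess, 6 on the hybridisation controls, 5 with quantile normalization, 4 with the median over probe sets, 3 with median centring and 0 with the other floor settings. With plain _at probe sets 3 of 31 changed sign. No paired analysis was possible because each genotype has 1 array. Signals near the floor limit what can be read.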
